A study of Mus musculus with 2 samples.

Results

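The genes described are Lin28a, Lin28b, Hmga1, Hmga2, Igf2bp1, Igf2bp2 and Igf2bp3, the LIN28 proteins and oncofetal genes under let-7 control. They were taken as all probe sets that the platform annotation pairs with exactly 1 of these symbols. That gave 17 of the 34958 probe sets with 1 symbol, from 5 of the 7 genes. The annotation lists no probe set with the symbol Hmga1 or Igf2bp2 alone, so these 2 genes were not analysed here. The set was chosen by its content with results of these arrays known, among them the log2 difference of Lin28a between the cultures, so its values are a description and carry no test.

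Mouse cells were profiled on 1-colour arrays, with 1 array per culture. The first culture held lymphoma cells in co-culture with endothelial cells, which form the inner lining of vessels. The second held lymphoma cells grown in medium with serum. No strain, genotype, lymphoma line, culture time or source of the endothelial cells is named, nor whether the co-cultured cells were separated before RNA was taken, and the medium of the co-culture is not given. The comparison asks which genes differ between these cultures. The presence of endothelial cells and any difference in serum or medium cannot be told apart.

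LIN28A and LIN28B are RNA-binding proteins of early embryonic and some tumour cells. They bind the precursors of the let-7 microRNAs and block their maturation. Mature let-7 in turn represses the mRNAs of growth genes, among them Hmga2, Lin28b and the Igf2bp genes. HMGA proteins bind AT-rich DNA and shape chromatin, and IGF2BP proteins bind mRNAs and protect them from decay. Most of these genes are abundant in fetal tissue, low in most adult tissues and active again in some cancers.

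The let-7 sequences are shown because they join the genes of this group. The microRNAs themselves were not analysed here. A microRNA finds its targets through its seed, bases 2 to 8, given in capitals. The sequences are mature mouse forms from RefSeq, build GRCm38.p6, read 5′ to 3′.
let-7a-5p (chr13:48538239-48538260, minus strand): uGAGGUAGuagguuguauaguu
let-7d-5p (chr13:48536078-48536099, minus strand): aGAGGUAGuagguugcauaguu
let-7g-5p (chr9:106178846-106178867, plus strand): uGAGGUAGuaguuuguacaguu
miR-98-5p (chrX:151913229-151913250, plus strand): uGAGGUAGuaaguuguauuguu
let-7j (chr3:140028281-140028304, plus strand): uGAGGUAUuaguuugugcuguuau
Of the 11 let-7 and miR-98 names in the table, 10 share the seed GAGGUAG, and let-7j has GAGGUAU. One other mature mouse microRNA in the table, miR-1961, has the seed GAGGUAG too.

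The zinc knuckles of LIN28 are known to bind the letters GGAG in the loop of a let-7 precursor. The let-7g hairpin is shown with these letters in capitals, and the let-7b hairpin as one without them between its arms.
let-7g hairpin (chr9:106178840-106178927, plus strand): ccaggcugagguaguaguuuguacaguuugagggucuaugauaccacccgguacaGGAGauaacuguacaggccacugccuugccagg
let-7b hairpin (chr15:85707319-85707403, plus strand): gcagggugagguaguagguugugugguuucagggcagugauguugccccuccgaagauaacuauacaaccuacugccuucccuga
Between the mature arms, 8 of 11 let-7 and miR-98 hairpins held GGAG (72.7%), against 44 of 633 other mouse hairpins with both arms listed (6.95%). The stretch between the arms had a median of 32 bases in the first set and 16 in the second, and a longer stretch holds any 4 letters more often. A match is a description of the letters and not a binding site.

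Some facts of the arrays touch every value that follows. A probe set was called measured when its intensity lay above the floor of 44.3, the pooled median of both arrays, on at least 1 of them. Above the floor lay 52.7% of probe sets on the co-culture array and 47.3% on the serum array. With 1 array per culture no difference can be set against the spread between cultures, and no p-value is given. Only the spread between probe sets of 1 gene on these same arrays can be described. It came to a pooled SD of 0.60 log2 units for 5480 genes. For the 3166 genes with several probe sets at a mean intensity of 200 or more it was 0.46. This spread describes probe error alone, and not error between arrays or cultures. Mean intensity here and below is the geometric mean of both arrays, after the floor. The 3′ to 5′ intensity ratio, a sign of RNA length, was 2.05 in co-culture and 3.56 in serum for Actb, 1.88 and 2.54 for Gapdh, and 5.03 and 13.2 for Tfrc. The labels say lymphoma cells and name no lineage, and markers of leukocytes and of B cells were looked up. Ptprc, the CD45 antigen of leukocytes, had intensities of 3.14 in co-culture and 21.5 in serum, Cd79a of the B cell receptor had 30.9 and 34.7, and the B cell factor Pax5 had 9.58 and 0.781, all below the floor. Above it on at least 1 array were Coro1a, with 125 in co-culture and 75.5 in serum, and Cd53, with 64.3 and 139, of the leukocyte markers, and Blk, with 126 and 27.0, Ebf1, with 85.3 and 161, Igll1, with 59.0 and 18.1, and Cd24a of the B cell markers. Of the pan-leukocyte markers 2 of 12 were measured, with summed intensities of 326 in co-culture and 373 in serum. Of the B cell markers 4 of 12 were measured, with sums of 5386 and 3817, of which Cd24a made up 4981 and 3486. Of the fibroblast markers 5 of 9 were measured, with sums of 431 in co-culture and 374 in serum. Each sum runs over all markers of its list with a probe set, measured or not. The arrays are named by their labels.

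Lin28a stood far higher in co-culture, by both of its probe sets. Probe set 1437752_at had an intensity of 534 in co-culture, against 59.4 in serum, which is 8.98-fold higher or 3.17 on the log2 scale. Probe set 1421749_at had 492 in co-culture, against 18.99 in serum. Since that serum value is below the floor, the fold is a lower bound, at least 11.1-fold higher or 3.47 on the log2 scale. With the floor at percentile 25 the values were 4.70 for 1421749_at and 3.17 for 1437752_at, so how near the 2 probe sets lie depends on the floor. These are bulk RNA samples, so more cells that carry Lin28a RNA and more Lin28a RNA per cell cannot be told apart.

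By its brighter probe set Lin28a was above the floor on both arrays, and 5 of the 9896 genes of which that holds had a larger log2 difference. Genes below the floor in serum have only a lower bound and were left out of this ranking. With them taken in, Lin28a was number 11 from the top of 11560 measured genes. Its place could be lower still, since their values are lower bounds. Of the 5480 genes with 2 or more measured probe sets, 66 (1.2%) had all of them past 2-fold on the higher side, and Lin28a is 1 of these. These places are a description, since the Lin28a difference was known when the genes were chosen. Dim probe sets passed 2-fold more often than bright ones: 13.2% of those at a mean intensity below 200, where both Lin28a probe sets lie, passed it on the higher side, against 4.9% at 200 or more. The size of the difference rests on the serum value near the floor. At a floor of 200 the difference was 1.42, and at a floor at percentile 75, an intensity of 389, it was 0.46.

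**Figure D1:**
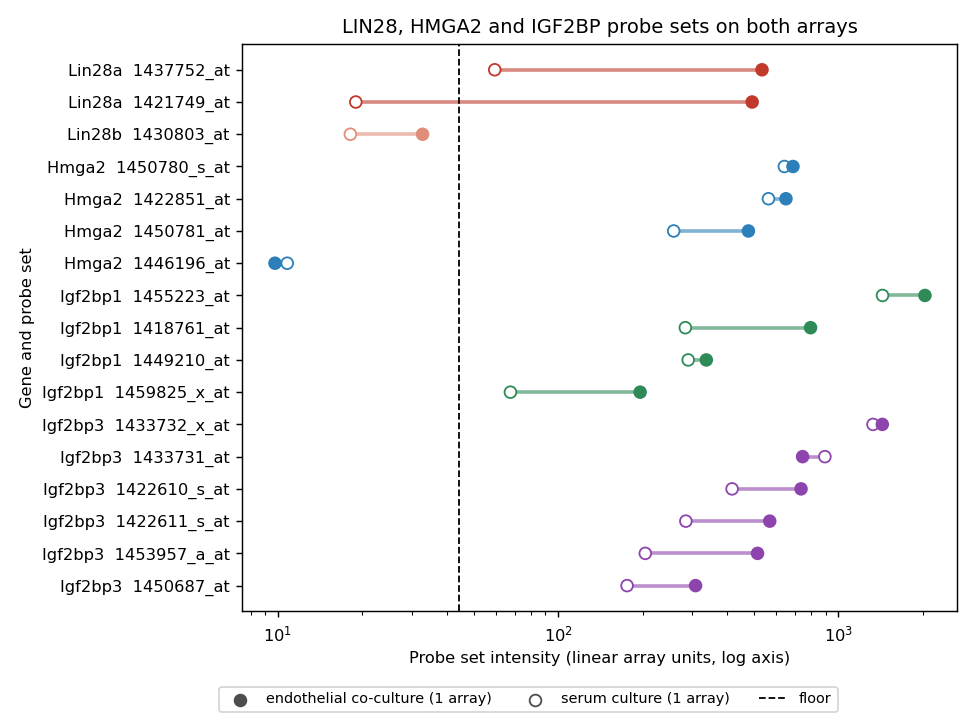
Intensity of each of the 17 probe sets (linear array units on a log axis) on the endothelial co-culture array (filled) and the serum array (open), with the floor of 44.3 as a dashed line. Each point is 1 array, without replicates. The Lin28a probe sets span the widest gap, 492 and 534 in co-culture against 18.99 and 59.4 in serum. Lin28b lies below the floor on both arrays. The other pairs span narrower gaps, up to 2.90-fold for 1459825_x_at of Igf2bp1.

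Lin28b, the paralogue of Lin28a with the same RNA-binding domains, was not measured. Its only probe set, 1430803_at, had an intensity of 32.8 in co-culture and 18.2 in serum, both below the floor, so no fold is given. Only at the floor at percentile 25, an intensity of 12.8, did it count as measured, with a log2 difference of 0.86. Of the LIN28 pair, Lin28a alone was above the floor, in co-culture by both probe sets and in serum by 1.

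The genomic sequence before the start of both paralogues is shown because Lin28a has the widest difference of the group and Lin28b was not above the floor. Each is 250 bases upstream of the start site in RefSeq, build GRCm38.p6, with the motif letters found in capitals.
Lin28a (chr4:134018817-134019066, minus strand): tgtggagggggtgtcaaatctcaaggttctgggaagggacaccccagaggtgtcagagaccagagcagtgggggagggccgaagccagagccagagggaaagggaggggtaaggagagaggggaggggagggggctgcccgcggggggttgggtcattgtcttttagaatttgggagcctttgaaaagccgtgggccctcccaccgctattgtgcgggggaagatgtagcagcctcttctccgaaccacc
Lin28b (chr10:45470202-45470451, minus strand): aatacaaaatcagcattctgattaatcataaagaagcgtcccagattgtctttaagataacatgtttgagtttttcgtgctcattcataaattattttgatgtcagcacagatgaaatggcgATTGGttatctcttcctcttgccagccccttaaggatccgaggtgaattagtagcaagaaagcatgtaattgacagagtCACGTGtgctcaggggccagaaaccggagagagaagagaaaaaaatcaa
The motifs searched, on both strands, were the E-box CACGTG, the GC box read as GGGCGG, the box CCAAT, the TATA box in its form TATAAA and the octamer ATTTGCAT. None overlapped another in these windows. The Lin28a window held none of them and had a GC content of 61.2%. The Lin28b window held 1 E-box and 1 CCAAT box, the second read on the other strand, and had a GC content of 39.2%. Of all 32851 upstream windows in the table, the E-box was in 6.02%, the GC box in 32.7%, the CCAAT box in 33.8%, the TATA box in 12.4% and the octamer in 1.60%, and the median GC content was 52.4%. A match is a description, and no match says only that these letters are not in this window.

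The genes placed next to Lin28a by log2 difference, at the floor of 44.3, were Sp6, Coch and Irf2bpl above it and Gja3, Speer8-ps1 and Klhl15 below. This order took in genes below the floor in serum and left out clone and gene-model symbols. Likeness here means only a like difference over 2 arrays. Of these 6 genes 4 were below the floor in serum, so their values are lower bounds and their order is set by the floor. With the floor at percentile 25, Sp6 had 5.23, Coch 5.16, Gja3 4.95 and Speer8-ps1 3.69, all above the 3.17 of Lin28a. Sp6, a transcription factor, had 483 in co-culture and 3.29 in serum, at least 10.9-fold higher. Irf2bpl had 1552 in co-culture and 151 in serum. Klhl15 had 420 in co-culture and 54.5 in serum. Other probe sets of these 3 genes gave much smaller differences, 0.46 for Sp6, 0.38 and 1.12 for Irf2bpl and -0.43 for Klhl15. The other probe set of Lin28a gave at least 3.47, a bound set by the floor. The Lin28a difference was known when the genes were chosen, so nothing is read from this contrast. Coch, an extracellular protein gene, Gja3, a gap junction gene, and the pseudogene Speer8-ps1 had no other measured probe set and were at least 10.3-fold, 8.94-fold and 8.15-fold higher, in that order.

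Most markers of endothelial cells were at or near background on both arrays. The endothelial list had 3 of 13 markers measured, with summed intensities of 890 in co-culture and 788 in serum, of which Egfl7 made up 532 and 473. Flt1, a receptor for vascular growth factors, had 26.4 in co-culture and 93.3 in serum, at least 2.11-fold lower, and Eng, a co-receptor of endothelial cells, had 58.5 in co-culture and 36.5 in serum. The other 10 were below the floor on both arrays. Among them Pecam1, an adhesion molecule, had 18.4 in co-culture and 21.3 in serum, and Cdh5, the endothelial cadherin, had 44.1 in co-culture and 19.6 in serum. The part of the RNA length ratios in the Lin28a difference was not tested.

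Hmga2, an AT-hook chromatin protein gene and a well-known let-7 target, was bright on both arrays and within 2-fold. Probe set 1450780_s_at had 688 in co-culture and 641 in serum, a log2 difference of 0.10. Probe set 1422851_at had 650 in co-culture and 563 in serum, a log2 difference of 0.21. Probe set 1450781_at had 477 in co-culture and 258 in serum, a log2 difference of 0.89 or 1.85-fold. All 3 were higher in co-culture, by log2 differences from 0.10 to 0.89. The brightest, 1450780_s_at, however had -0.09 when the arrays were scaled to the hybridisation spikes. The fourth probe set, 1446196_at, was below the floor on both arrays, with 9.78 in co-culture and 10.8 in serum.

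Igf2bp1, which binds mRNAs such as those of beta-actin and Myc, gave unequal values by probe set. The brightest, 1455223_at, had 2034 in co-culture and 1436 in serum, a log2 difference of 0.50. Probe set 1449210_at had 338 in co-culture and 291 in serum, a log2 difference of 0.21. The other two passed 2-fold. Probe set 1418761_at had 795 in co-culture and 284 in serum, 2.80-fold higher, and 1459825_x_at had 196 in co-culture and 67.6 in serum, 2.90-fold higher. All 4 were higher in co-culture under every setting in which they were measured, but the SD between them, 0.68 on the log2 scale, is larger than the 0.50 of the brightest.

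Igf2bp3, an mRNA-binding paralogue of Igf2bp1 found in many tumours, was also split. The brightest probe set, 1433732_x_at, had 1433 in co-culture and 1328 in serum, a log2 difference of 0.11. Probe set 1433731_at, the next brightest, was the only member probe set that was lower in co-culture, with 745 in co-culture and 894 in serum, a log2 difference of -0.26. The remaining 4 were all higher, and dimmer. Probe set 1453957_a_at had 515 in co-culture and 205 in serum, 2.51-fold higher. Probe set 1422611_s_at had 569 in co-culture and 286 in serum, 1.99-fold higher, just inside the limit. Probe set 1422610_s_at had 735 in co-culture and 417 in serum, a log2 difference of 0.82. Probe set 1450687_at had 309 in co-culture and 176 in serum, a log2 difference of 0.81. The median over the 6 probe sets was 0.81, with an SD of 0.59, so the call for Igf2bp3 depends on which probe set is read.

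A like split between dim and bright probe sets was seen over the whole array, but smaller. Among the 3166 genes with several probe sets at a mean intensity of 200 or more, the dimmest probe set had a median log2 difference of 0.08 and the brightest had -0.03. In 60.2% of these genes the dimmest gave the higher difference. The place of each probe set along its transcript was not analysed here, and the part of the RNA length ratios in the split was not tested.

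**Figure D2:**
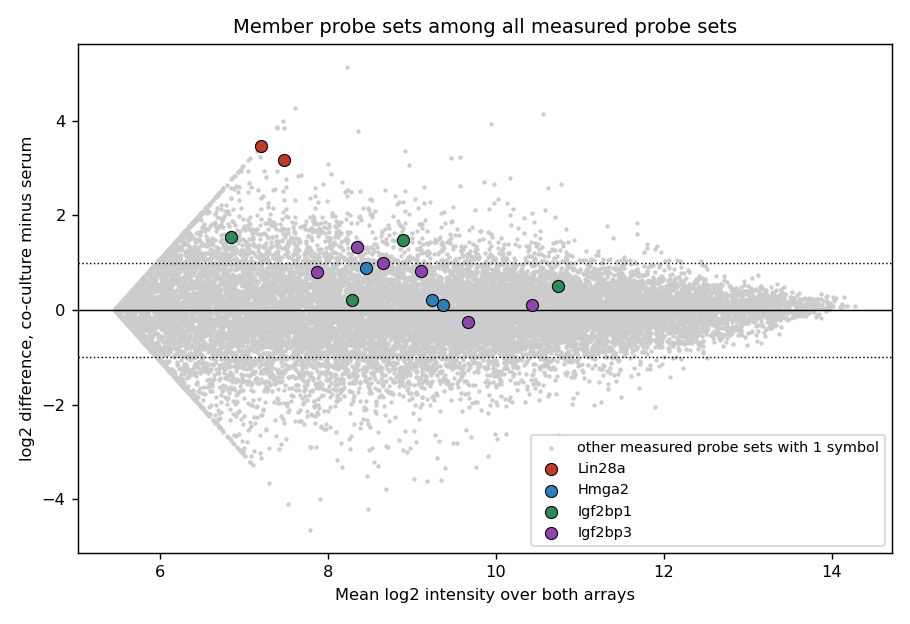
log2 difference, co-culture minus serum, against the mean log2 intensity over both arrays for each measured probe set with 1 symbol (grey) and for the 15 measured member probe sets (coloured by gene). Dotted lines mark 2-fold. Both Lin28a points lie above 3, Igf2bp1 and Igf2bp3 points spread from -0.26 to 1.54, and the Hmga2 points lie between 0.10 and 0.89.

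Over the group, 15 of 17 probe sets were measured, and 14 of these were above the floor on both arrays. Of the 15, 5 passed 2-fold on the higher side in co-culture and 0 on the lower side, where over all measured probe sets 8.17% were higher and 8.05% lower by that limit. By any size 14 of 15 were higher, against 52.6% of all measured probe sets, and this fell to 12 of 15 with scaling to the hybridisation spikes. The median log2 difference was 0.82, against 0.03 over all measured probe sets. With each gene read by its brightest probe set, 1 of 4 measured genes was at least 2-fold higher and 0 lower, against 4.52% and 9.97% of all measured genes. Their median was 0.31, against -0.06 over all measured genes. These counts come from the contrast used to choose the genes, and probe sets of 1 gene share their RNA, so nothing is read from them.

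The machinery that makes and breaks down let-7 was measured in full and, by brightest probe sets, lay mostly within 2-fold. Other measured probe sets of its genes had log2 differences from -0.70 to 2.53. Of 22 genes, 20 were within 2-fold, 0 higher and 2 lower, with a median log2 difference of 0.13. Over all measured genes 4.52% were higher and 9.97% lower, with a median of -0.06, and each list below is set beside these values. Prkra, a partner of the Dicer enzyme, had 399 in co-culture and 1252 in serum, 3.14-fold lower. Dis3l2, the nuclease that degrades let-7 precursors tagged with uridines, had 122 in co-culture and 277 in serum, 2.26-fold lower, but its 2 other measured probe sets had 0.08 and 0.21. Tut4, the enzyme that LIN28A recruits to add the uridines, had 709 in co-culture and 371 in serum, a log2 difference of 0.93, and its 4 other measured probe sets had 0.79 to 1.95. Its relative Tut7 had 0.28, or 0.91 by another probe set. Dicer1, which cuts the precursors, had 0.06, or 1.08 by another probe set. Tut4, Tut7 and Dicer1 were picked out after their values were seen. With the mean over probe sets in place of the brightest, 3 genes of this list were higher and 0 lower. That mean took in probe sets below the floor on both arrays as no difference. Prkra, with no other measured probe set, went to -0.83 by it.

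By their brightest probe sets, most other textbook targets of let-7 lay within 2-fold. Other measured probe sets of the listed genes had log2 differences from -0.995 to 1.85. Of 19 measured, 1 was at least 2-fold higher, 2 at least 2-fold lower and 16 within 2-fold, with a median log2 difference of 0.14. Plagl2, a zinc finger factor, had 805 in co-culture and 360 in serum, 2.23-fold higher, with 0.65 and 0.79 by other probe sets. Nr6a1, the germ cell nuclear factor of early embryos, had 188 in co-culture and 460 in serum, 2.45-fold lower, with no other measured probe set. The mean over probe sets gave -0.26, drawn towards no difference by its probe sets below the floor. The floor at percentile 75 gave -0.24, a fold limited by that floor. Map4k4, a kinase, had 1627 in co-culture and 3335 in serum, 2.05-fold lower, and its other probe sets were lower too, from -0.995 to -0.33. Trim71, the embryonic RNA-binding ubiquitin ligase that let-7 represses, had 1047 in co-culture and 557 in serum, a log2 difference of 0.91, and 1.68 by another probe set. It was picked out after its values were seen. Myc, a growth regulator, was below the floor with 9.34 in co-culture and 23.8 in serum. The balance of this list turned with the setting: 2 were higher and 0 lower with the mean over probe sets, and 0 higher and 2 lower with scaling to the hybridisation spikes.

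The pluripotency genes that accompany Lin28a in embryonic stem cells were mostly below the floor. Of 18 genes, 4 were measured, 1 of them at least 2-fold higher and 0 lower. Fgf4, a growth factor of the early embryo, had 124 in co-culture and 33.4 in serum, at least 2.80-fold higher, with no other measured probe set. The mean over probe sets, which took in its probe sets below the floor as no difference, gave 0.37 on the log2 scale. At a floor of 200 or at percentile 75 Fgf4 was not above the floor, and under these 3 settings 0 genes of the list were higher. The core factors Pou5f1, Nanog and Sox2 and the zinc finger factor Sall4 were below the floor on both arrays, with Pou5f1 at 2.31 in co-culture and 1.86 in serum and Nanog at 26.7 in co-culture and 43.8 in serum. Lin28a was measured while these genes were below the floor.

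Of 8 measured fetal and imprinted growth genes, 3 were at least 2-fold higher and 0 lower, with a median log2 difference of 0.64. Afp, the oncofetal serum protein alpha-fetoprotein, had 192 in co-culture and 46.2 in serum, 4.17-fold higher, and 0.80 and 1.79 by other probe sets. Peg10, an imprinted gene derived from a retrotransposon, had 138 in co-culture and 16.9 in serum, at least 3.12-fold higher. Plagl1, an imprinted zinc finger factor, had 4456 in co-culture and 2146 in serum, 2.08-fold higher, but 0.13 and 0.23 by other probe sets. Igf2, the growth factor whose mRNA gave the IGF2BP proteins their name, was below the floor with 7.07 in co-culture and 2.32 in serum. Without probe sets that share sequence, with the mean over probe sets, or at a floor of 200 or percentile 75, 1 gene of this list was at least 2-fold higher.

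**Figure D3:**
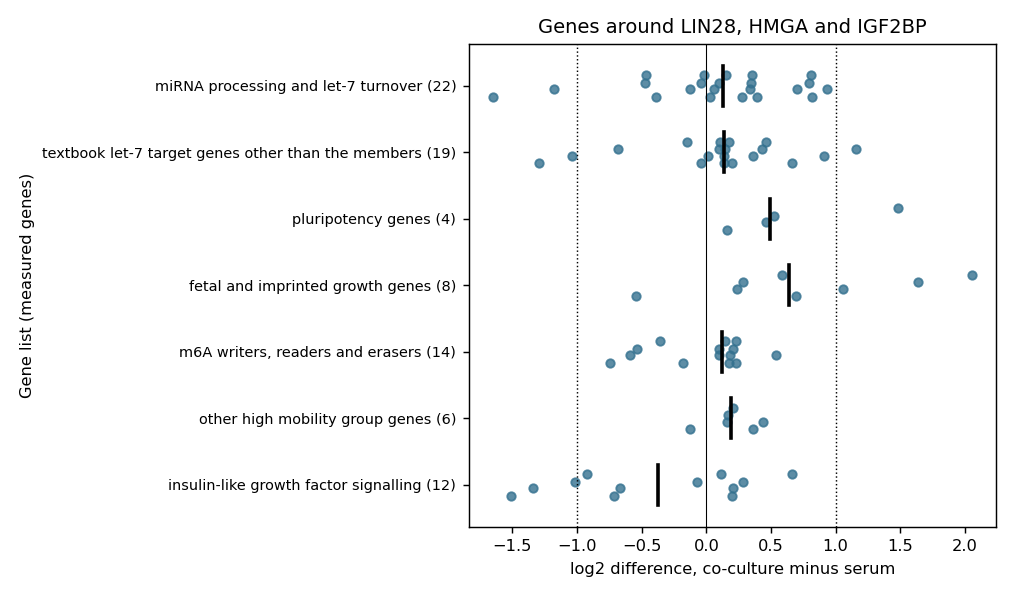
log2 difference, co-culture minus serum, of each measured gene by its brightest probe set (points) in 7 lists, with the number measured in brackets and the list's median as a black bar. Dotted lines mark 2-fold. The medians run from -0.37 for insulin-like growth factor signalling to 0.64 for fetal and imprinted growth genes.

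By their brightest probe sets, the m6A genes and the other high mobility group genes lay within 2-fold. All 14 measured genes that write, read or erase the m6A mark, which IGF2BP proteins read on mRNA, lay within 2-fold, with a median of 0.12. Among them Mettl3, the catalytic writer, had a log2 difference of -0.59, and Zc3h13, a writer subunit, -0.74. Other probe sets passed 2-fold for 3 of the genes, up to 1.51 for the eraser Alkbh5, 1.19 for the RNA-binding protein gene Elavl1 and 1.12 for the reader Ythdf3. All 6 measured high mobility group genes outside the HMGA family, which are separate families of chromatin proteins, lay within 2-fold, with a median of 0.19. Hmgb2 had 0.44 and Hmg20b 0.36, and Hmgb2 was higher by its other probe sets as well, by 0.26 and 0.51.

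The genes listed for insulin-like growth factor signalling, which LIN28 is known to raise through let-7, had a lower median in co-culture. The list holds both activators and inhibitors, so this median gives no direction of signalling. Of 12 measured genes, 3 were at least 2-fold lower, 0 higher and 9 within 2-fold, and the median log2 difference was -0.37. Irs1, an insulin receptor substrate, had 261 in co-culture and 743 in serum, 2.85-fold lower. Tsc1, an inhibitor of the growth kinase mTOR, had 783 in co-culture and 1980 in serum, 2.53-fold lower, and -0.59 and -0.56 by other probe sets. Insr, the insulin receptor, had 204 in co-culture and 414 in serum, 2.03-fold lower, but -0.09 by another probe set. The receptor Igf1r had a log2 difference of 0.66, and its 2 other measured probe sets had -0.34 and 0.77. With the mean over probe sets, or with the floor at percentile 75, 1 gene of this list was at least 2-fold lower. With the floor at percentile 25 it was 4, and under the other settings it stayed at 3.

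**Figure D4:**
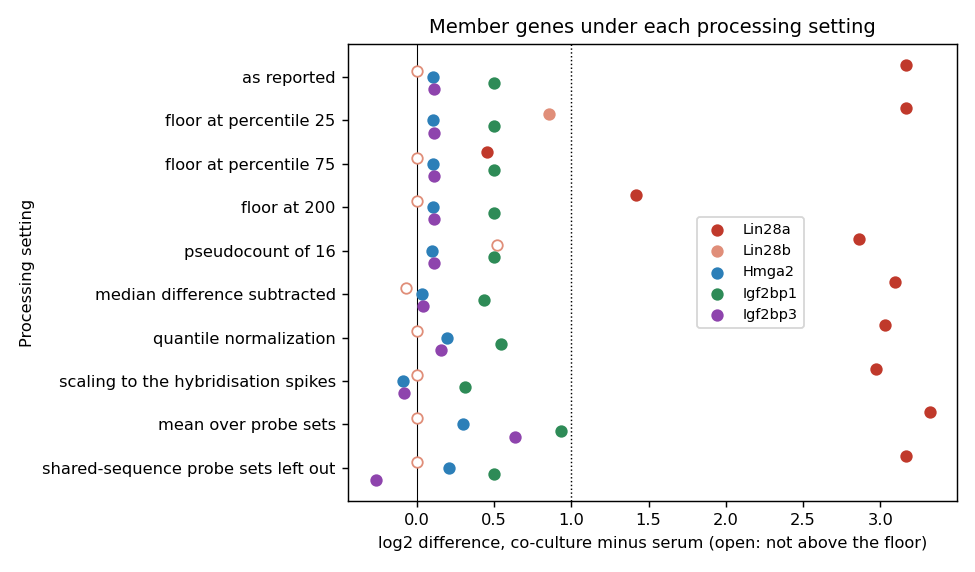
log2 difference, co-culture minus serum, of the 5 genes with a probe set, as reported and under 9 other processing settings. Open points mark values not above the floor and the dotted line marks 2-fold. Lin28a stays between 2.87 and 3.32 except at the floors of 200 (1.42) and of percentile 75 (0.46), and no other gene passes 2-fold in any setting.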

How the data were processed

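The authors deposited 1 value for each of 45101 probe sets on each of 2 arrays, an intensity on a linear scale. Per the labels' protocols, cDNA was primed from poly(A) with a T7 primer and biotin-labelled cRNA was hybridised. How the arrays were read, background-corrected and normalized is not given in the sources used here. On both arrays the mean came to 500.0 once 2% of values were trimmed from each end, as global scaling would leave. Names came from the platform annotation, with symbols updated by gene number to RefSeq (34754 of 34958).

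Values below the floor of 44.3 were set to it before log2 was taken. A gene was read by its brightest probe set over both arrays. The alternative by the mean over probe sets also took in those below the floor on both arrays, as no difference. This draws the mean towards no difference. Higher or lower means at least 2-fold, and a fold against the floor is a lower bound. There is no test between groups, with 1 array each. From each of 7 pathway lists up to 4 genes with the largest difference past 2-fold were named, or 2 where none passed, and 3 neighbours on each side of Lin28a. Others are said to be picked afterwards, as are Pou5f1, Nanog, Sox2, Sall4, Myc, Igf2, Igf1r, Alkbh5, Elavl1, Ythdf3, Coro1a, Cd53, Blk, Ebf1, Igll1, Cd24a, Flt1, Eng and Egfl7. The members, lists and 9 alternatives were chosen with earlier results of these data known. The steps were tested on simulated data. Python 3.11.15, pandas 2.3.3 and scipy 1.17.1 were used.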

Additional observations from a re-analysis of the deposited data

How the results depend on the processing

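No paired analysis was possible because each culture has 1 array. No result changed sign among those past 2-fold under the 9 alternatives, but most of these could not bring that about. A floor or a pseudocount keeps the sign of a probe set's difference or removes the difference. Subtracting the median or scaling to the spikes moved Lin28a from 3.17 to 3.10 and 2.98, too little to reverse a value past 2-fold. Little is therefore read from the lack of reversals. A value was taken to have moved when it changed by at least the pooled SD between probe sets, 0.60, or a count by more than 1.5 times. Lin28a moved to 0.46 with the floor at percentile 75, where 0 of the genes was at least 2-fold higher, and to 1.42 with the floor at 200, and Lin28b moved to 0.86 with the floor at percentile 25. A higher floor limits any fold by construction. Over all genes the number at least 2-fold higher was 523 as reported, 2029 and 143 with the floor at percentiles 25 and 75, 218 with the floor at 200, 853 with a pseudocount of 16 and 328 with scaling to the hybridisation spikes. The number at least 2-fold lower was 1152 as reported, 397 and 656 with the floors at percentile 75 and 200, and 653 with the mean over probe sets. The higher share of all calls was 31.2% as reported, 55.9% with the floor at percentile 25, 41.5% with the pseudocount and 17.2% with the spikes, which moved the median of all measured genes from -0.06 to -0.26. The brightest probe sets of Hmga2 and Igf2bp3 had -0.09 and -0.08 with the spikes, and Igf2bp3 had -0.26 without probe sets that share sequence and 0.63 with the mean over probe sets. Of the other values, 300 did not move and 67 did. Signal over background limits Lin28a in serum and Lin28b on both arrays.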

Other observations

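The array also carries a probe set for the pseudogene Hmga2-ps1, which the choice of genes left out. It had 71.1 in co-culture and 51.5 in serum, near the floor.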
